A study of Mus musculus with 39 samples.

Results

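The far upstream block of the mouse α-globin locus is the stretch chr11:31925000-32073309 (mm9), which lies beyond the upstream flank of the α-globin self-interacting domain. A DpnII restriction fragment was a member if its midpoint fell inside these 148.31 kb, whatever its interaction values. Of the 346 fragments cut there in silico, 341 had a value from at least 1 viewpoint and 5 were never seen, against 178486 fragments with a value on the whole chromosome. The 341 fragments were also read in 74 whole bins of 2 kb, and in a distal and a proximal part of equal length, the proximal part being the one nearer to the domain. The upstream flank that separates the block from the domain is as long as the domain itself, 63.7 kb.

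Chromosomes fold into self-interacting domains, within which fragments meet more often than they meet neighbouring chromatin, and sites bound by the insulator protein CTCF lie at many of their borders. The α-globin domain holds the adult genes Hba1 and Hba2, which encode the α chain of haemoglobin, together with their upstream enhancers. These genes are silent in embryonic stem cells and are strongly transcribed in maturing red cell precursors.

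NG Capture-C gave, for each chosen viewpoint fragment, how often every other fragment was ligated to it after crosslinking. Erythroid cells came from mouse foetal livers (MFL, labelled C57Bl6), were expanded in culture, depleted of Ter119-positive cells, sorted on CD44 and size, and taken after 0 h or 30 h in differentiation medium, with BrdU added before harvest. Such cultures hold cells at more than 1 stage of maturation. Embryonic stem cells (mES) were the single line E14, of strain 129/Ola, so cell type and strain cannot be told apart in any comparison of the 2. The enhancer knockout, called DKO here, lacks the regulatory regions R1 and R2 and was compared with wild-type (WT) MFL, both at 30 h. The study's methods describe the background of its mutant and wild-type mice as mixed, so strain may also differ between the knockout and wild-type groups, and its part was not tested. The AMKO line lacks the region that holds Hba1 and Hba2 and was compared with WT at 30 h in 1 library each. Wild-type MFL at 30 h were also left untreated, given DMSO for 3 h, or given DRB, an inhibitor of transcription elongation, for 3 h, in 1 library each. Every other group had 3 biological replicates. For the 3 MFL libraries captured from R1 and R2 the sample description gives 30 h and the time field gives 0 h, and the description was followed. The labelled cell types could not be checked against marker genes, because the files hold interactions and no expression values.

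The 12 viewpoints on chromosome 11 lie at increasing distance from the proximal end of the block. EX, at 58.6 kb, and the CTCF site HS39_5, at 63.9 kb, mark the upstream edge of the domain. The enhancers R1 and R2 lie at 72.0 and 77.8 kb, with viewpoint E beside R2 at 77.0 kb. The promoters Hba1 and Hba2 lie at 110 and 122 kb. Viewpoint A, at 132 kb, sits just past the downstream end of the domain, followed by the CTCF sites CTCF_44 and CTCF_48 at 148 and 151 kb, and by C and CX at 181 and 206 kb. Values of R1 and R2, of Hba1 and Hba2, and of CTCF_44 and CTCF_48 were averaged within each pair.

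The annotation (GENCODE, mm9) placed 2 genes in the block. Nsg2, which encodes a neuronal vesicle trafficking protein, runs on the plus strand from chr11:31900463-31959202. Its last 34.2 kb, with 3 exons, cover the distal 23.1% of the block. Gm12108, a processed transcript on the minus strand at chr11:31995261-32001228, covers another 5.97 kb. The remaining 108 kb hold no annotated gene.

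The CTCF core motif is shown because several viewpoints of the panel were placed at CTCF sites. It was searched on both strands as an exact match, and was found 858 times on chromosome 11, in 1.43% of its 2 kb windows. The block held 2 matches, 1 on each strand and neither in a gene. No match was found in the upstream flank, in the domain, or in any viewpoint fragment, CTCF_44 and CTCF_48 included. A match is a description of the letters and not a measured binding site. Since HS39_5, CTCF_44 and CTCF_48, placed at CTCF sites, held no match, a missing match does not show that a site is absent. Match 1 covers chr11:32004921-32004932 on the plus strand, 68.4 kb before the proximal end of the block, and match 2 covers chr11:32062359-32062370 on the minus strand, 10.9 kb before it. Each is printed 5′ to 3′ on its own strand with 20 flanking bases on either side, and capitals mark the 12 bases of the match.
match 1: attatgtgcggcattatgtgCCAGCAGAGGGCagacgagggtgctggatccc
match 2: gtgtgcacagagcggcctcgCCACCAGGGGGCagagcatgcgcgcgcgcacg

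The 3 fragments with the highest mean value over the 22 replicated profiles, a profile being 1 viewpoint in 1 group, each took at most 1.30% of the block on average. In a single profile the highest values were 3.92% for fragment 1, from Hba1/2 at 30 h, and 2.73% for fragment 2, from EX in MFL, where its replicates stood at 279, 63.1 and 35.5 per 100000. They lie at chr11:32068898-32070070 (fragment 1), chr11:32065139-32065836 (fragment 2) and chr11:32053652-32054657 (fragment 3), all in the proximal part and outside genes. The first 300 bases of fragments 1 and 2, on the plus strand and starting with the DpnII site, are shown because one of them is unusual. Fragment 2 holds a tandem run of 242 bases with a period of 31 bases, or 7.81 copies, in capitals. In fragment 1 the capitals mark the DpnII site. Reads that fall wholly within such a run have no single place in it, and their part in the values of fragment 2 was not tested.
fragment 1: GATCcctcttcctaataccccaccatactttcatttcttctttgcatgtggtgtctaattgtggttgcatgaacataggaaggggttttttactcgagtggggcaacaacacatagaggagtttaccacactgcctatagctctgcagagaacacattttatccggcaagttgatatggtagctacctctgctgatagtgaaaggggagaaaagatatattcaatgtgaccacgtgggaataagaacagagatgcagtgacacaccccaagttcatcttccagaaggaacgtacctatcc
fragment 2: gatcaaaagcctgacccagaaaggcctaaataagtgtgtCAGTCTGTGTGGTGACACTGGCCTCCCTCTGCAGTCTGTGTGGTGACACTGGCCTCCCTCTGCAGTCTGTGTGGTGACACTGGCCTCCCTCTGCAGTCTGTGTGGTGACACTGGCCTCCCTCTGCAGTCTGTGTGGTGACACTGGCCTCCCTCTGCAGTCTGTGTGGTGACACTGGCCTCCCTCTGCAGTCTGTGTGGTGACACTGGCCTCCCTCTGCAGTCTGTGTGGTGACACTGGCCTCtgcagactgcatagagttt

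Depth differed widely between captures. Reporter reads per viewpoint and run ranged from 2287 to 188599 (median 19889), and 49.8% to 88.1% of them fell on chromosome 11. The block received from 79 reads, from Hba1/2 in replicate 1 at 30 h, to 7945 reads, from E in replicate 3 of mES cells. These block reads were summed over the viewpoints of a pair and over runs, so a molecule read in 2 runs would count in both. All values below are therefore given per 100000 chr11 interactions of a viewpoint or as a percentage of them, and the block's percentage is called its share. The deleted sites were lower in the knockouts, but only R2 was near 0. From Hba1/2 the R2 fragment stood at 744 ± 19.6 in WT and at 0, 0 and 13.4 in the DKO replicates. The R1 fragment stood at 576 ± 18.5 in WT and kept 109, 154 and 129 in the DKO replicates. From R1/R2 the interval between Hba1 and Hba2 took 9459 in WT and still 737 in AMKO. What these remaining interactions are was not tested.

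In mES cells the block's share overlapped between the viewpoints from EX to A and was lower from C and CX. It was 6.24 ± 0.366% (SD, n = 3 here and throughout) from EX, 6.20 ± 0.356% from R1/R2, 5.97 ± 0.264% from E and 5.90 ± 0.384% from A. The replicates of these 4 overlapped, although A lies on the far side of the domain from EX. From C and CX, still farther away, the share was 3.68 ± 0.0860% and 3.23 ± 0.175%. The highest of these 6 mES means was 1.93 times the lowest.

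In wild-type MFL at 30 h the order was another one, and the highest of 11 means was 7.01 times the lowest. That range was set by CTCF_44/48 and Hba1/2, which were not captured in mES cells. Among viewpoints captured in both cell types, the MFL means ran from 1.101% from E to 6.45% from C. Viewpoints at the upstream edge of the domain gave intermediate shares, 4.61 ± 0.302% from EX and 3.94 ± 0.279% or 4.20 ± 0.0442% from HS39_5 in its 2 experiments. Viewpoints inside the domain gave the lowest shares, with 1.79 ± 0.188% from R1/R2, 1.101 ± 0.0692% from E and 1.05 ± 0.263% or 1.19 ± 0.102% from Hba1/2. The values from E and Hba1/2 overlapped between replicates. Viewpoints downstream of the domain gave the highest ones although they are the farthest from the block, at 7.37 ± 0.0161% from CTCF_44/48, 6.45 ± 0.0507% from C and 5.53 ± 0.142% from CX. Viewpoint A, nearer to the domain than these, gave 3.90 ± 0.394%, which overlapped with HS39_5.

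**Figure D1:**
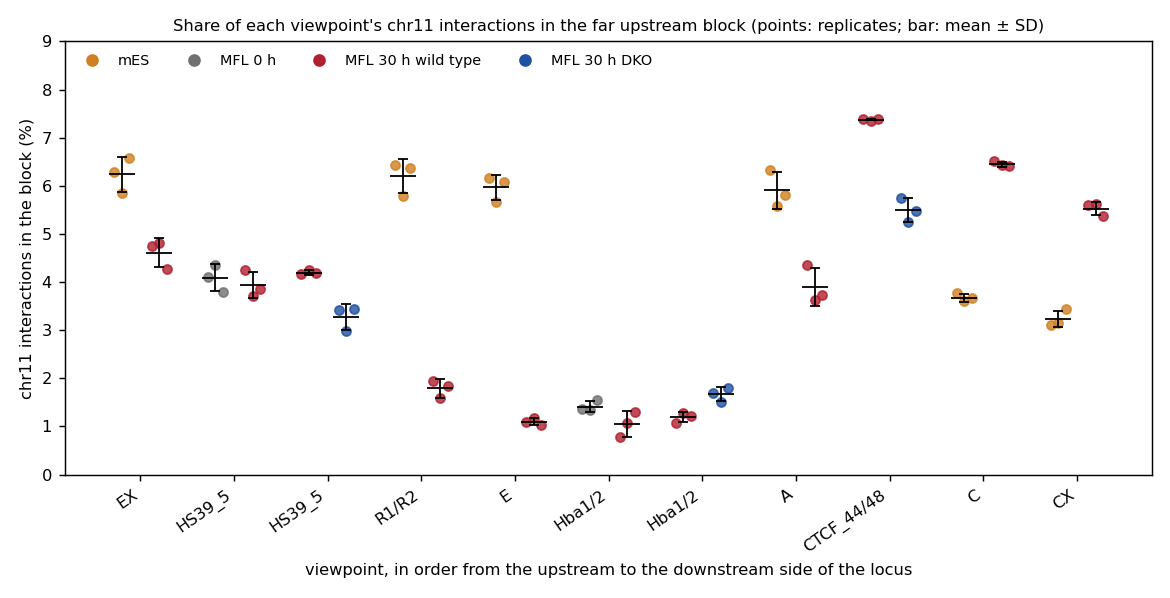
Share of each viewpoint's chr11 interactions (%, vertical axis) that fell in the block, with viewpoints ordered from the upstream to the downstream side of the locus. Points are replicates and bars the mean ± SD (n = 3). The mES values lie between 3.11% and 6.57%, the MFL values from inside the domain (R1/R2, E, Hba1/2) lie below 2%, and CTCF_44/48 in wild-type cells is highest at 7.37%.

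The first comparison asks how the block is seen from the domain in cells with the α-globin genes off and on. From R1/R2 the block took 6.43%, 5.79% and 6.38% in the mES replicates and 1.95%, 1.58% and 1.83% in the MFL replicates. All MFL replicates lay below all mES replicates, a 3.47-fold lower mean (exact two-sided permutation test, p = 0.1, the smallest that 3 against 3 allows). From E the mES replicates gave 6.16%, 5.67% and 6.08% and the MFL replicates 1.09%, 1.17% and 1.04%, a 5.42-fold lower mean with the same exact p. Over the 11 replicated comparisons of the block's share, 10 had groups without overlap, and each of these 10 had an exact permutation p = 0.1 and a Benjamini-Hochberg adjusted p = 0.11.

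A test across the chromosome was obtained by tiling it in windows of the block's own length and fitting limma to all windows with enough interactions. From R1/R2 the block fell by 1.80 on the log2 scale (SE 0.0792, limma adjusted p = 3.15e-08) while the median of the 74 windows tested rose by 0.33, and 53 windows (71.6%) were called in either direction. It had the smallest p of all windows, and only 3 windows fell more. From E it fell by 2.44 (SE 0.0950, limma adjusted p = 3.11e-25), again with the smallest p, against a median of -1.10 over 45 windows, of which 36 (80.0%) were called. Only 2 of those windows fell more. The very small p values rest on a mean-variance trend shared over windows. Without it the smallest limma adjusted p of the block over the 11 comparisons was 8.75e-06, and 8 were under 0.05. The share of the domain itself moved in the opposite direction, from 36.2 ± 1.46% in mES to 60.1 ± 0.460% in MFL from E, and from 31.4 ± 0.805% to 43.3 ± 0.901% from R1/R2. With interactions inside the domain left out of the total, the block's share was still lower in MFL, by -1.53 from R1/R2 and -1.76 from E on the log2 scale.

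The decrease ran along the whole block. From E, 66 of the 70 block bins tested were lower in MFL (94.3%, limma, adjusted p under the threshold of 0.05), with 34 in the proximal and 32 in the distal part, against 55.5% of all chr11 bins tested. None was higher (6.98% of all chr11 bins were), and the median log2 difference was -3.01 in the block and -2.04 over all bins. Taken as 1 window the block stood at -2.44, a smaller fall than that of its median bin. Bin 32057000-32058999 stood at 123, 139 and 149 in mES and at 11.6, 25.4 and 9.16 in MFL (log2 difference -3.20, SE 0.432, limma adjusted p = 0.000919). Bin 31959000-31960999, which starts inside the end of Nsg2, stood at 79.2, 88.9 and 53.4 in mES and was empty in all MFL replicates. From R1/R2, 38 of 73 block bins were lower (52.1%, against 19.7% of all chr11 bins), 24 proximal and 14 distal, and none was higher (6.12% of all chr11 bins were). Bin 32045000-32046999 fell from 172, 147 and 178 to 56.3, 42.8 and 52.4 (log2 difference -1.70, SE 0.194, limma adjusted p = 0.00220), and bin 31989000-31990999 stood at a mean of 45.4 in mES and was empty in all MFL replicates. The counts rested on the mES replicates, since 10 to 17 bins were called from R1/R2 without any 1 of these and 42 from E without mES replicate 1. The background depended on the test. With edgeR on recovered reads and TMM scaling, which centres on the bulk of bins, 45 of 70 block bins were lower from E (64.3%, against 21.8% of all chr11 bins). From R1/R2 edgeR called 38 of 73 lower (52.1%, against 15.0%). It called no block bin higher, against 20.3% of all chr11 bins from E and 13.1% from R1/R2.

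The MFL libraries were shallower than the mES libraries, which touches the empty bins. In mES cells all 74 bins were reached in all 3 replicates from R1/R2 and from E. In MFL 39 bins were reached in all 3 from R1/R2 and 41 from E. At the read number of the shallowest replicate of each comparison the expected numbers were 66.4 against 28.6 from R1/R2, and 73.1 against 36.0 from E. The gap thus remained at equal depth.

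From the viewpoints on either edge of the domain the difference was smaller. From EX the shares were 6.29%, 5.85% and 6.57% in mES and 4.75%, 4.81% and 4.26% in MFL, a log2 difference of -0.44 (SE 0.0707, limma adjusted p = 0.000382 over 74 windows, of which 50, or 67.6%, were called and whose median was 0.29). From A they were 6.32%, 5.57% and 5.82% in mES and 4.35%, 3.63% and 3.73% in MFL, a log2 difference of -0.60 (SE 0.0902, limma adjusted p = 3.41e-07 over 65 windows, 72.3% called, median 0.43). Neither pair of groups overlapped. Few single bins of 2 kb were called, 2 of 73 block bins were lower from EX (2.74%, against 2.83% of all chr11 bins) and 5 of 73 from A (6.85%, against 6.48%), shares close to those on the chromosome at large. In bins of 10 kb, 9 of 14 were lower from EX (64.3%, against 38.0% of all chr11 bins of that size) and 11 of 14 from A (78.6%, against 52.2%). None of the 2 kb bins was higher, against 2.02% and 2.74% of all chr11 bins. From EX the lower bins were 32003000-32004999, the bin of CTCF motif match 1, at 77.4, 103 and 109 in mES and 9.14, 55.3 and 17.4 in MFL, and 31951000-31952999 in Nsg2, at 80.7, 142 and 78.9 against 37.4, 14.3 and 33.7. From A, bin 32005000-32006999 stood at 60.4, 59.5 and 56.7 in mES and at a mean of 3.66 in MFL, where it was empty in 2 of 3 replicates. These small counts moved when 1 library was left out, between 0 and 5 from EX (0 without mES replicate 1, 1 without mES replicate 3, 4 without MFL replicate 1 and 5 without MFL replicate 3) and between 0 and 11 from A (0 without any 1 of the mES replicates and 11 without MFL replicate 3).

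The loss seen from EX and A was uneven. The proximal part held 73.9 ± 0.651% of the block's interactions in mES and 81.7 ± 3.61% in MFL from EX, and 69.7 ± 0.544% and 80.4 ± 1.45% from A. Per kb, the distal part stood at 24.2 ± 1.95 in mES and 10.4 ± 1.78 in MFL from A, and the proximal part at 55.5 ± 3.24 and 42.3 ± 3.57. Over the same change the upstream flank rose from 95.3 ± 2.21 to 160 ± 12.3 per kb. Seen from A, the flank and the block next to it thus moved in opposite directions.

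**Figure D2:**
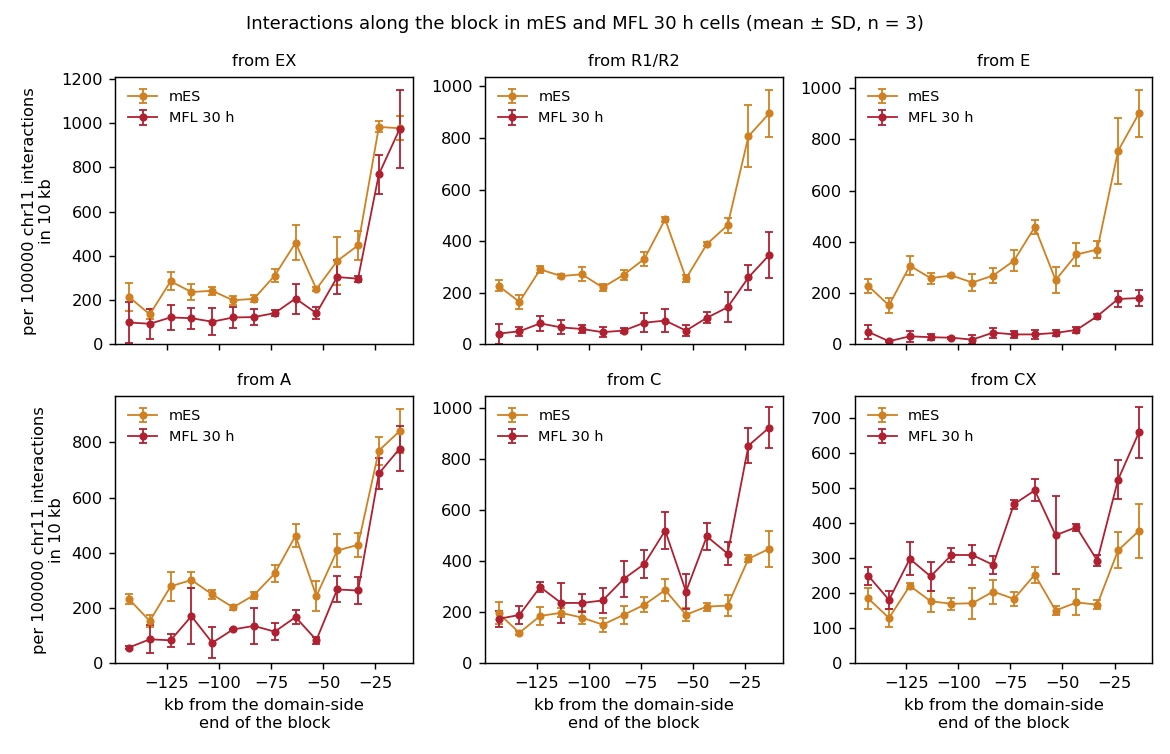
Interactions per 100000 chr11 interactions in each whole 10 kb bin of the block (vertical axis) against the distance in kb of the bin's centre from the proximal end of the block, for 6 viewpoints, in mES and MFL 30 h cells (mean ± SD, n = 3). The last 8.31 kb before the proximal end form no whole 10 kb bin and are not drawn. MFL lies below mES along the block from R1/R2 and E, and above it from C and CX over most of the block.

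From the viewpoints beyond the domain the direction was the opposite. From C the block took 3.77%, 3.60% and 3.66% in the mES replicates and 6.50%, 6.42% and 6.41% in the MFL replicates, a 1.75-fold higher mean. From CX it took 3.11%, 3.15% and 3.43% in mES and 5.60%, 5.61% and 5.36% in MFL, a 1.71-fold higher mean. In both cases all MFL replicates lay above all mES replicates. The limma log2 differences were 0.81 from C (SE 0.0486, adjusted p = 2.96e-46) and 0.77 from CX (SE 0.0655, adjusted p = 3.18e-15). These increases were part of a broader one, since the median window rose by 0.97 from either viewpoint. Of 101 windows tested from C 85.1% were called and 55 rose more than the block, and of 116 tested from CX 86.2% were called and 68 rose more. With edgeR and TMM scaling, which centres on the bulk of windows, the block's difference turned to -0.16 from C (adjusted p = 0.0170) and to -0.12 from CX (adjusted p = 0.127). Without TMM, edgeR kept the direction and the call from both.

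With limma the 2 kb bins gave another background. The median of all bins tested was -0.50 from C and -0.61 from CX, while the block's median bin was 0.72 and 0.68 higher in MFL. The median window was 0.97 from both, so whether the block rose beyond the chromosome depended on the background. Mean chr11 reads per replicate were 24303 in MFL and 122170 in mES from C, and 29615 and 137254 from CX. The part of this depth difference in the fall of sparse bins was not tested. From C, 23 of 74 block bins were higher (31.1%, against 3.90% of all chr11 bins), and none was lower (17.3% of all chr11 bins were). Of these 23 bins, 21 were in the proximal part. From CX, 18 of 74 were higher (24.3%, against 5.09%), 13 proximal and 5 distal, and none was lower (18.0% of all chr11 bins were). Bin 32069000-32070999, to which fragment 1 was assigned, rose from 149, 169 and 132 to 297, 258 and 301 from C (log2 difference 0.93, SE 0.184, limma adjusted p = 0.00291). Bin 32045000-32046999, which fell from R1/R2, rose from 75.5, 80.1 and 75.0 to 188, 140 and 201 from C (log2 difference 1.17, SE 0.236, limma adjusted p = 0.00315). From CX, bin 32007000-32008999 rose from 94.9, 67.1 and 68.9 to 161, 214 and 251 (log2 difference 1.42, SE 0.267, limma adjusted p = 0.000742), and bin 32055000-32056999 from 77.2, 67.1 and 97.9 to 170, 232 and 177. Without a mean-variance trend in limma the counts were 1 from C (1.35%, against 0.574% of all chr11 bins) and 0 from CX (against 1.47%). With edgeR on recovered reads 37 of 74 block bins were higher from C, against 10.6% of all chr11 bins. These edgeR counts also used TMM scaling, here centred on the bulk of the bins tested. The same scaling over windows turned the block's difference negative. From CX 45 of 74 were, against 14.3%. edgeR called no block bin lower, against 12.1% of all chr11 bins from C and 7.92% from CX. The background from CX thus depended on the test, with more chr11 bins higher than lower by edgeR. Leaving out 1 library gave 12 bins from C (without mES replicate 2), and 8, 11 and 9 from CX (without mES replicate 1, mES replicate 3 and MFL replicate 1). From C and CX every one of the 74 bins was reached in all replicates of both cell types.

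The density per kb placed the block against the chromatin between it and these viewpoints. From CX in mES cells it rose steadily towards the viewpoint, from 18.0 ± 0.168 in the distal part through 25.6 ± 2.44 in the proximal part and 31.5 ± 1.42 in the flank to 49.5 ± 5.32 in the domain. In MFL it was highest of these 4 intervals in the proximal part of the block, at 46.5 ± 2.27, with 28.0 ± 1.75 in the distal part, 24.9 ± 0.820 in the flank and 8.04 ± 0.111 in the domain. From C the same 4 values were 17.9 ± 1.22, 31.7 ± 0.342, 42.7 ± 1.105 and 67.2 ± 3.00 in mES and 25.4 ± 1.45, 61.5 ± 1.096, 45.4 ± 3.1997 and 17.1 ± 1.70 in MFL. In MFL the block thus drew more interactions per kb from C and CX than the domain, which lies nearer to both. The downstream flank, which holds C and ends close to CX, stood above all of these in MFL, at 298 ± 3.04 from C and 78.5 ± 1.49 from CX. The ratio of block to flank density moved from 0.694 ± 0.0663 to 1.50 ± 0.0257 from CX, and from 0.581 ± 0.0249 to 0.961 ± 0.0781 from C. From E the opposite gradient steepened, with 25.2 ± 0.856, 55.3 ± 2.71, 161 ± 4.84 and 568 ± 23.0 in mES and 3.07 ± 0.482, 11.8 ± 0.817, 96.4 ± 5.27 and 942 ± 7.22 in MFL.

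**Figure D3:**
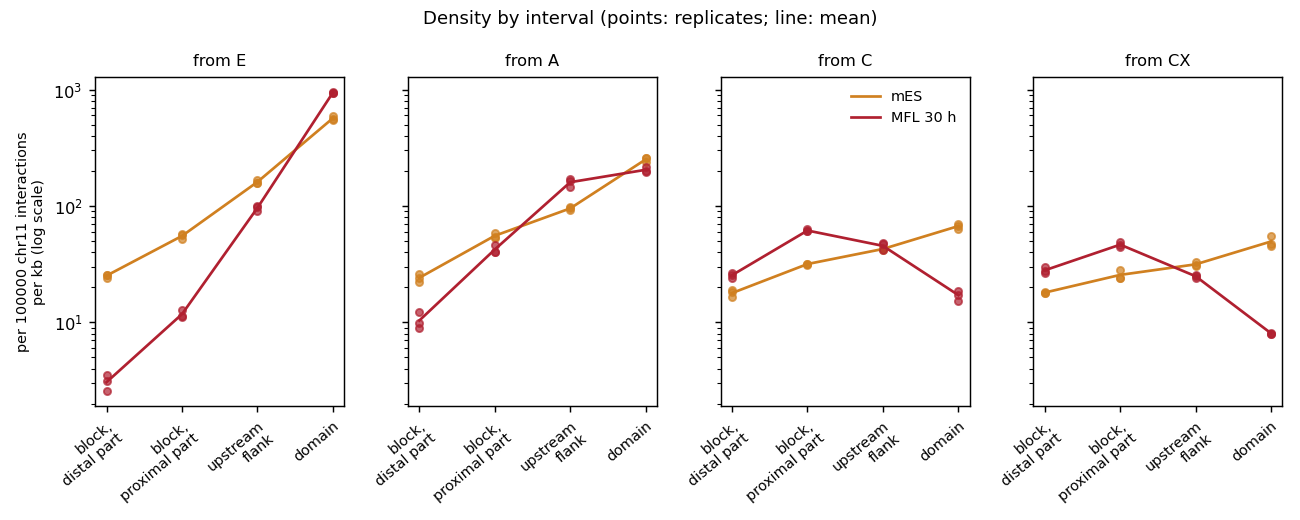
Interactions per 100000 chr11 interactions per kb (log scale, vertical axis) in the distal and proximal parts of the block, the upstream flank and the domain, from 4 viewpoints. Points are replicates and lines join the means (n = 3). From E and A the density rises towards the domain in both cell types, while from C and CX it rises towards the domain in mES only and in MFL is highest, of the 4 intervals drawn, in the proximal part of the block.

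The block was also set against the interval of the same length at the same distance on the other side of each downstream viewpoint, a comparison added after the data were seen. From C the log2 ratio of the block to that interval was -0.61 ± 0.0379 in mES and 0.95 ± 0.0809 in MFL, and from CX it was -0.50 ± 0.118 and 0.92 ± 0.0965. The block was thus the weaker side in mES and the stronger side in MFL. From A the ratio rose from 0.28 ± 0.0774 to 0.54 ± 0.245, although the share itself fell. This rise rested largely on 1 library, since the MFL replicates stood at 0.82, 0.43 and 0.36 against a highest mES value of 0.36, and without MFL replicate 1 the difference went from 0.26 to 0.12. Groups did not overlap for these 3 viewpoints (exact two-sided permutation test, p = 0.1 each).

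The second comparison asks how the block is seen once the enhancers R1 and R2 are gone. From CTCF_44/48 the block took 7.38%, 7.35% and 7.38% in WT and 5.75%, 5.26% and 5.48% in DKO, and from HS39_5 it took 4.16%, 4.24% and 4.18% in WT and 3.42%, 2.97% and 3.44% in DKO. All DKO replicates lay below all WT replicates from both sites, on opposite sides of the domain. The log2 difference was -0.43 from CTCF_44/48 (SE 0.0594, limma adjusted p = 1.81e-10) and -0.36 from HS39_5 (SE 0.0708, limma adjusted p = 1.24e-05). The median window moved the other way, by 0.27 over 102 windows from CTCF_44/48, 52.9% of them called, and by 0.49 over 78 windows from HS39_5, 44.9% called. Both CTCF viewpoints fell when taken singly. CTCF_48 went from 8.62 ± 0.132% to 5.89 ± 0.389% and CTCF_44 from 6.12 ± 0.101% to 5.10 ± 0.118%.

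From CTCF_44/48 the bins that fell were all in the proximal part. There, 15 of 72 block bins were lower (20.8%, against 9.06% of all chr11 bins), and none of the 15 was distal. From HS39_5, 4 of 64 were lower, all proximal, but this share was close to that on the chromosome at large (6.25%, against 5.60% of all chr11 bins). No block bin was higher from either viewpoint, against 3.46% and 2.99% of all chr11 bins. The same pair of bins led both comparisons, which were made on the same libraries. Bin 32047000-32048999 fell from 324, 382 and 345 to 175, 155 and 190 from CTCF_44/48 (log2 difference -1.01, SE 0.133, limma adjusted p = 7.27e-08), and from 185, 205 and 236 to 108, 85.3 and 76.1 from HS39_5 (log2 difference -1.22, SE 0.252, limma adjusted p = 0.000506). Bin 32051000-32052999 fell from 415, 401 and 353 to 224, 261 and 209 from CTCF_44/48, and from 266, 241 and 311 to 101, 114 and 157 from HS39_5. Without a mean-variance trend no block bin was called from either viewpoint. None was called on all of chr11 either, with 607 bins tested from CTCF_44/48 and 536 from HS39_5. The block's limma adjusted p from HS39_5 became 0.121 in the window test without a trend. Without DKO replicate 3, 2 bins were called from HS39_5.

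The distal part stayed within the replicate spread. From CTCF_44/48 it took 1.01 ± 0.0809% in WT and 1.07 ± 0.0887% in DKO, and from HS39_5 0.500 ± 0.0352% and 0.508 ± 0.0577%, while the proximal part went from 6.36 ± 0.0893% to 4.43 ± 0.169% and from 3.70 ± 0.0446% to 2.77 ± 0.207%. The proximal share of the block fell from 86.3 ± 1.11% to 80.6 ± 0.849% from CTCF_44/48. The upstream flank fell with it, from 17.1 ± 0.103% to 13.1 ± 0.327%, and the ratio of block to flank density was 0.185 ± 0.00145 in WT and 0.180 ± 0.00919 in DKO. Against the equidistant interval beyond CTCF_44/48 the block's log2 ratio was 1.26 ± 0.0767 in WT and 0.79 ± 0.0376 in DKO (exact two-sided permutation test, p = 0.1, groups without overlap). The block therefore remained the stronger side in DKO.

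**Figure D4:**
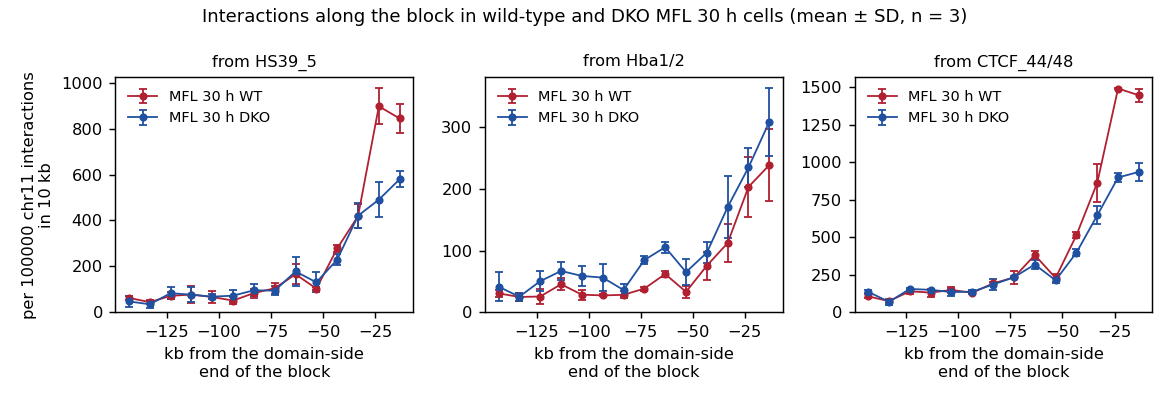
Interactions per 100000 chr11 interactions in each whole 10 kb bin of the block (vertical axis) against the distance in kb of the bin's centre from the proximal end of the block, from 3 viewpoints in WT and DKO MFL at 30 h (mean ± SD, n = 3). From HS39_5 and CTCF_44/48 the DKO line runs below the WT line near the domain and along it farther out, and in bin 32045000-32054999 the means are 1490 in WT and 898 in DKO from CTCF_44/48.

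From Hba1/2 the block moved the other way, and this depended on the scale. The shares were 1.08%, 1.28% and 1.22% in WT and 1.70%, 1.52% and 1.80% in DKO, without overlap, a log2 difference of 0.49 (SE 0.106, limma adjusted p = 2.68e-05). The median of the 102 windows tested was 0.69, 72.5% of them were called, and 66 rose more than the block. The domain's own share from Hba1/2 fell from 54.5 ± 2.49% to 35.6 ± 1.62%. As a percentage of interactions outside the domain the block stood at 2.64 ± 0.343% in WT and 2.59 ± 0.211% in DKO, a log2 difference of -0.02. Of 41 block bins tested 1 was higher (2.44%, against 11.5% of all chr11 bins) and none was lower, against 4.96%. That bin, 32003000-32004999 with CTCF motif match 1, stood at 6.53, 9.14 and 15.2 in WT and at 31.8, 28.3 and 29.5 in DKO (log2 difference 1.52, SE 0.484, limma adjusted p = 0.0361), and edgeR called none of the 41, nor did limma without WT replicate 1 or without any 1 of the DKO replicates. With edgeR and TMM scaling the block's difference was -0.14 (adjusted p = 0.384), while edgeR without TMM kept the direction and the call.

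**Figure D5:**
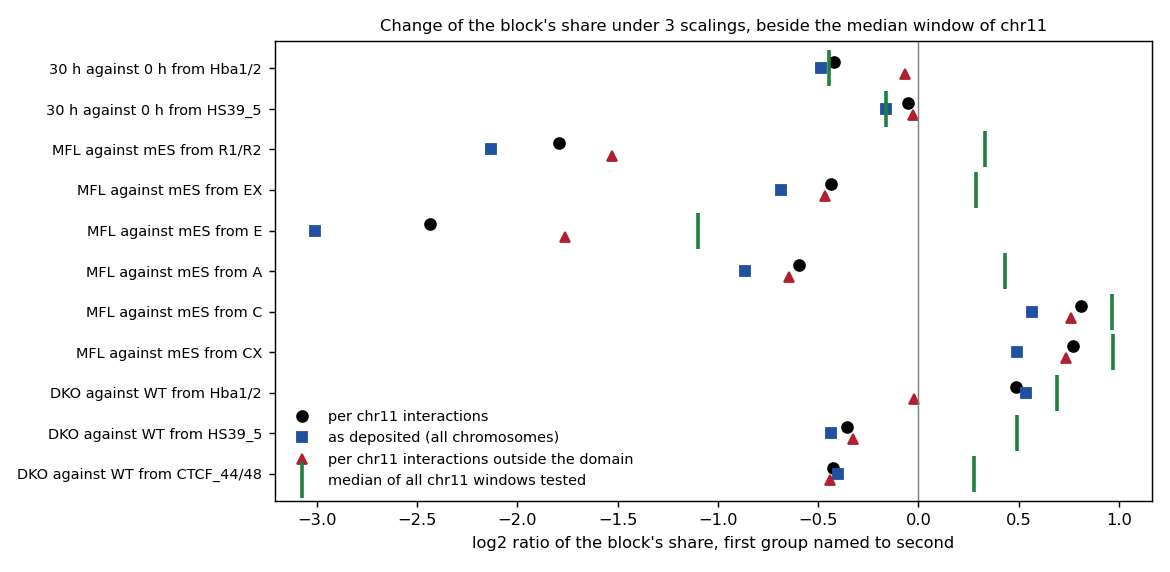
Log2 ratio of the block's share (horizontal axis, first group named to second) in the 11 replicated comparisons, under 3 scalings of the same interactions, with the median difference of all chr11 windows as a vertical tick. The scaling moves the values from Hba1/2 to about 0 (-0.07 for 30 h against 0 h and -0.02 for DKO against WT, outside the domain) and leaves the direction of the others unchanged, whereas edgeR with TMM, not drawn, turned C, CX, HS39_5 at 30 h and Hba1/2 in DKO. Without TMM, edgeR kept the direction of all 9 comparisons it was run on.

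The third comparison asks whether the block is seen differently once the α-globin genes are switched on during differentiation. From HS39_5 it was not detectably different, at 4.11%, 4.35% and 3.80% at 0 h and 4.25%, 3.70% and 3.86% at 30 h (exact two-sided permutation test, p = 0.6, and a limma log2 difference of -0.05 with a 95% interval of -0.28 to 0.17). From Hba1/2 the shares were 1.35%, 1.33% and 1.54% at 0 h and 0.780%, 1.07% and 1.30% at 30 h. The groups did not overlap, although they did on the deposited scale, with 5 kb left out around viewpoints or from Hba2 alone (exact permutation p = 0.3 each). The limma log2 difference of -0.45 (SE 0.188) did not pass (adjusted p = 0.103 over 93 windows, 15.1% called) and was close to the median window, -0.44. The domain's share from Hba1/2 was 40.2 ± 0.503% at 0 h and 53.4 ± 1.22% at 30 h. Outside the domain the block's log2 difference was -0.07. No block bin was called by limma or by edgeR from either viewpoint, with 39 bins tested from Hba1/2 and 58 from HS39_5. At an unadjusted p under 0.05 limma gave 5 of them (12.8%) from Hba1/2 and 3 (5.17%) from HS39_5, against 7.92% and 3.30% of all chr11 bins. With adjustment, 1.56% of all chr11 bins were called higher from Hba1/2 and 0.0846% from HS39_5, with none lower. Without the 30 h replicate 2, 1 bin was called lower from Hba1/2. These captures were shallow, and 15 bins at 30 h and 22 at 0 h were reached in all 3 replicates from Hba1/2, with 13.1 and 15.2 expected at equal depth. The expected numbers used reads summed over both runs, so the depth in molecules may be lower.

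The single libraries allow no test. From R1/R2 the block took 1045 of 57574 chr11 reads in WT, or 1.82% (95% Wilson interval 1.71 to 1.93), and 1567 of 82155 in AMKO, or 1.91% (1.82 to 2.00). The intervals overlapped, although the domain's share was 41.9% in WT and 28.3% in AMKO. The domain includes the sequence deleted in AMKO, and the interval between Hba1 and Hba2 alone took 9459 per 100000 in WT and 737 in AMKO. The 2 enhancers differed in direction, with 2.34% in WT and 2.07% in AMKO from R1, and 1.45% and 1.80% from R2. From Hba1/2 the block took 130 of 9674 reads in untreated cells, or 1.34% (1.13 to 1.59), 93 of 6329 after DMSO, or 1.47% (1.201 to 1.80), and 221 of 14503 after DRB, or 1.52% (1.34 to 1.74). All 3 intervals overlapped, so no difference was detectable at this depth. Intervals cover counting error only.

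Along the block the same places stood high in most profiles. Bin 32069000-32070999 was the highest of the 74 bins in 12 of the 22 replicated profiles, and its neighbour 32067000-32068999 in 7, centred 3.31 and 5.31 kb before the proximal end. The exceptions were 32007000-32008999 from CX in MFL at 209 ± 45.4, 32041000-32042999 from Hba1/2 at 30 h at 87.8 ± 35.6, and 32063000-32064999 from HS39_5 at 0 h at 325 ± 89.8. The first of these holds 13 DpnII fragments, against 7 in bin 32069000-32070999. It lies in the 10 kb bin 32005000-32014999, which stood above both its neighbours from EX, E, A, C and CX in mES cells, for example at 457 ± 26.3 from E, and this bin has 34 fragments, more than any other 10 kb bin of the block. The part of fragment number in these heights was not tested.

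More than 50% of the block's interactions came from the proximal part in all 27 profiles, single libraries included. The proximal share ranged from 58.6% from CX to 73.9% from EX in mES, and from 62.4% from CX to 88.1% from HS39_5 in the replicated profiles of wild-type MFL at 30 h. The single wild-type libraries lay between 83.2% and 88.7%. Nsg2, at the distal end, was below the gene-free part of the block per kb in all 27 profiles, for example 22.2 ± 0.946 against 48.4 ± 3.41 from R1/R2 in mES. Gm12108, in the middle, was below it in 26 of 27. The exception was CX in MFL, at 48.9 per kb in Gm12108 against 41.0 outside genes. Genes and distance from the domain run together here and cannot be told apart.

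The bins of the CTCF motif matches did not stand at the same height. The bin of match 2, 32061000-32062999, ranked between 3 and 20 of the 74 bins over the 22 replicated profiles, and stood at 242 ± 53.9 from HS39_5 at 0 h and at 215 ± 26.9 from CTCF_44/48 in WT. The bin of match 1 ranked between 17 and 57. It stood at 64.3 ± 14.4 from CTCF_44/48 in WT and 60.5 ± 13.6 in DKO, within the replicate spread. Match 2 lies near the proximal end, where the highest bins of most profiles lie.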

How the data were processed

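NG Capture-C was made by the authors in 39 libraries and sequencing runs, in 13 groups. Per the labels and the study's methods, reads were trimmed with Trim Galore, aligned to mm9 with Bowtie and assigned to DpnII fragments with the authors' capture scripts, whose versions are not given in the sources used here. The deposited values are reads per 100000 reporter reads of a viewpoint, a form of RPM, and the authors made no correction for distance or fragment length. Every deposited column came out as whole reads (100% of values within 0.1 of a whole number), which gave depth and Wilson intervals. In 3 of 147 columns 1 read was worth nearly a power of 10, where whole multiples are weaker evidence of reads. Precision at the lowest depths is limited by counting error.

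From these, a margin of 1 kb on either side of the panel's viewpoints was left out, each viewpoint was scaled to 100000 chr11 interactions, and runs of a replicate were averaged. For the 0 h and 30 h captures from HS39_5 and Hba1/2 the 2 runs differed by less than the sampling noise (median chi-square per degree of freedom 0.652 and 0.531) and were counted as 1 sample. The runs of a replicate from the probe viewpoints (EX, E, A, C, CX) differed by more than that, by 2.61 in MFL and 2.44 in mES, against 2.25 and 4.30 between replicates, and were averaged too. Shares were compared by exact permutation tests over 20 arrangements. Windows of 148.31 kb (mean of at least 100) and bins of 2 kb (mean of at least 10) were tested with limma 3.58.1 on log2(value + 1). The fit used a mean-variance trend and Benjamini-Hochberg adjustment. The added 1 damps changes between low values, but a bin left empty in shallow libraries can read as a large fall. Bin 31959000-31960999 from E, empty in MFL, had a log2 difference of -6.19. edgeR 4.0.16 was run on the recovered reads as an alternative, with TMM scaling for bins and with and without it for windows. It was not run from EX and A, which hold 1 such column each. The limma fit of windows and bins was checked on simulated data, for 30 h against 0 h from Hba1/2 and for MFL against mES from E only. Members were taken by position, but the interval and the lists were chosen with earlier results of these data known. Named bins were, per comparison and direction, up to 2 called bins with the smallest adjusted p that moved the same way in all 3 replicates, and the highest bin of each profile. Same-numbered replicates did not deviate together (correlations of -0.28 to 0.15), so no block was used. Other alternatives were the deposited scale, interactions outside the domain, 5 kb left out, a pseudocount of 10, no minimum, 10 kb bins and leaving out each replicate.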

Additional observations from a re-analysis of the deposited data

Results flagged for a closer look

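The transcription inhibition experiment also captured 3 promoters on chromosome 11 outside the α-globin locus, which the comparisons above do not use, and the block was seen from each of them above the limit that 3 reads allow. These are single libraries and were not tested. From Cpeb4, which encodes an RNA-binding regulator of translation and lies 154 kb upstream of the block, the block took 1.14% of chr11 reads in untreated MFL (114 reads, 95% Wilson interval 0.954 to 1.37), 1.45% after DMSO (114 reads, 1.21 to 1.74) and 1.56% after DRB (291 reads, 1.39 to 1.75). The untreated and DRB intervals do not overlap, and the DMSO interval overlaps both. From Fbxw11, which encodes a ubiquitin ligase subunit and lies 469 kb downstream, the shares were 0.954% (0.722 to 1.26), 1.37% (1.06 to 1.76) and 1.39% (1.18 to 1.64). From Chac2, which encodes an enzyme of glutathione breakdown and lies 1038 kb upstream, they were 0.638% (0.497 to 0.819), 0.505% (0.368 to 0.692) and 0.645% (0.533 to 0.780). The limits that 3 reads allow were 0.0161% to 0.0706%. From Cpeb4, 24.6% to 39.5% of the block's reads fell in its distal part, the part nearer to that viewpoint.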

How the results depend on the processing

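The block's share kept its direction in 118 of 120 alternatives. Its exact test cannot reach the threshold with 3 against 3, so only direction and overlap can be read. Of 109 alternatives to a share without overlap, 103 were also without overlap. The other 6 were 30 h against 0 h from Hba1/2 under 5 settings (deposited values, outside the domain, 5 kb left out, second run only, Hba2 alone) and DKO against WT from Hba1/2 outside the domain. The window test kept its direction and call in 161 of 167. Scaled to interactions outside the domain, DKO against WT from Hba1/2 turned to a log2 difference of -0.023 for the share and -0.017 for the window test. Against the equidistant interval, chosen after seeing the data, A turned to a log2 difference of 0.26. With edgeR and TMM the window turned to 0.20 for HS39_5 at 30 h (adjusted p = 0.775), -0.16 for C (adjusted p = 0.0170), -0.12 for CX (adjusted p = 0.127) and -0.14 for DKO from Hba1/2 (adjusted p = 0.384). Without TMM, edgeR kept direction and call in all 9 comparisons it was run on, 7 of them with an adjusted p under 0.05. Without a trend the window from HS39_5 in DKO kept -0.36 and lost its call (adjusted p = 0.121). The causes were not tested. AMKO against WT, 0.03 on the log2 scale, moved to -0.25 outside the domain, -0.17 from R1 and 0.31 from R2.

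Counts of called block bins moved by over 1.5 times in 56 of 130 alternatives. Where bins were lower, their share in the block was above that of all chr11 bins under the same setting in 62 of 64 alternatives, and where they were higher, in 23 of 29. With a pseudocount of 10 they were 1 from Hba1/2 at 30 h (2.56%, against 0.130% of all chr11 bins) and 62 from R1/R2 (84.9%, against 39.1%). From EX they were 6 (8.22%, against 6.60%) and from A 14 (19.2%, against 12.3%). Without a trend they were 1 from EX (1.37%, against 0.404%), 2 from A (2.74%, against 2.49%) and 1 from C (1.35%, against 0.574%). They were 0 from CX, where 1.47% of all chr11 bins were higher, and 0 from Hba1/2 in DKO, where 2.58% were. From HS39_5 and CTCF_44/48 in DKO they were 0 in the block and 0 on all of chr11. Without a minimum they were 10 from R1/R2 (13.5%, against 0.106%) and 33 from E (44.6%, against 0.371%). From C they were 9 (12.2%, against 0.0322%) and from CX 3 (4.05%, against 0.00940%). They were 0 from EX and A, against 0.0397% and 0.0522% of all chr11 bins lower. In DKO they were 0 from Hba1/2, against 0% higher, and 1 from HS39_5 (1.35%, against 0.126%). With 10 kb bins, of which the block holds 14, they were 14 from R1/R2, 9 from EX, 14 from E, 11 from A, 11 from C, 14 from CX, and 3 from Hba1/2, 2 from HS39_5 and 4 from CTCF_44/48 in DKO. The shares of block bins tested and of all chr11 bins of 10 kb called the same way were 100% and 71.8% from R1/R2, 64.3% and 38.0% from EX, 100% and 81.7% from E, 78.6% and 52.2% from A, 78.6% and 16.9% from C, 100% and 24.9% from CX, 42.9% and 72.7% from Hba1/2, 15.4% and 12.5% from HS39_5, and 28.6% and 14.05% from CTCF_44/48. edgeR with TMM scaling over bins gave 37 of 74 from C, against 10.6% of all chr11 bins, and 45 of 74 from CX, against 14.3%. In DKO it gave 0 from Hba1/2, where 1.39% of all chr11 bins were higher, and 9 from HS39_5 (14.1%, against 8.40%). With 1 replicate left out the ranges were 0 to 1 from Hba1/2 at 30 h, 10 to 55 from R1/R2, 0 to 5 from EX, 42 to 69 from E, 0 to 11 from A, 12 to 24 from C, 8 to 17 from CX, 0 to 1 from Hba1/2 in DKO and 2 to 4 from HS39_5 in DKO.

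The labels share replicate numbers between groups but nothing pairs them. With a replicate block the bins were 25 from R1/R2 (34.2%, against 11.8% of all chr11 bins), 5 from EX (6.85%, against 4.58%) and 9 from A (12.3%, against 9.96%). The window call changed in none of the 11 comparisons. edgeR was not run from EX and A, where 1 read in 1 column each was worth nearly a power of 10. A second run alone could not be used for mES cells from the probe viewpoints, as 1 replicate has one.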

Other observations

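At equal distance on either side of the viewpoint, a comparison added after the data were seen and not tested, the block was the weaker side from the upstream edge and most of the domain. From HS39_5 the log2 ratio of the block to the downstream interval of the same length was -1.30 ± 0.197 at 0 h, -1.35 ± 0.0833 at 30 h, -1.18 ± 0.0663 in WT and -1.43 ± 0.122 in DKO. From EX, where the downstream interval takes in the end of the domain, it was -0.32 ± 0.0278 in mES and -1.13 ± 0.0762 in MFL. From R1 it was -0.15 ± 0.0430 in mES and -0.96 ± 0.207 in MFL, from R2 -0.04 ± 0.0298 and -0.43 ± 0.196, and from E -0.01 ± 0.0282 and -0.44 ± 0.194. At 0 h it was -0.21 ± 0.152 from Hba1 and -0.55 ± 0.248 from Hba2, and at 30 h 0.47 ± 0.557 and 0.11 ± 0.207, with a spread as large as the value. In the WT group of the knockout experiment, also at 30 h, it was -0.14 ± 0.214 from Hba1 and -0.15 ± 0.187 from Hba2. The sign at 30 h thus differed between the experiments. In DKO it was -0.55 ± 0.0967 and -0.54 ± 0.194.

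An interval was also placed by the domain, as far beyond its downstream end as the block is before its upstream end. Against it the block's log2 ratio was positive from HS39_5, EX, R1/R2 and E, from which the equidistant ratio was negative. This interval is farther than the block from viewpoints in the upstream part of the domain, so distance and side cannot be told apart. The ratio was 0.77 ± 0.135 at 0 h, 1.37 ± 0.263 at 30 h, 1.05 ± 0.0852 in WT and 0.34 ± 0.0848 in DKO from HS39_5, 0.66 ± 0.0743 in mES and 1.07 ± 0.301 in MFL from EX, 0.37 ± 0.0309 and 0.15 ± 0.139 from R1/R2, and 0.31 ± 0.0748 and 0.15 ± 0.167 from E. From CTCF_44/48, which lies nearer to the downstream interval, it was 0.65 ± 0.0550 in WT and 0.03 ± 0.00785 in DKO. From Hba1/2 it was -0.26 ± 0.0530 at 0 h, 0.18 ± 0.209 at 30 h, -0.02 ± 0.123 in WT and -0.40 ± 0.111 in DKO. From A it was -0.14 ± 0.125 in mES and 0.36 ± 0.323 in MFL. No test was made of these ratios.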
